A study of Drosophila melanogaster with 19 samples.

Results

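A joint sort of 2 neuron types, T1 and Tm1, from the optic lobe of adult Drosophila melanogaster was compared with sorts of Tm2 and of Tm9, the other neurons of the OFF pathway in the series that feed T5. These are 3 of the 19 samples and 9 of the 57 libraries of the series, 3 libraries for each group. Of the 17558 genes in the table, 12569 were tested. A gene was kept where its mean level in the mixture was at least its mean level in the sort of T1 alone, which left 7091 genes, and the other 5478 were set aside because T1 had more. Every group came from flies aged 3 to 6 days. In each, a Gal4 line specific to the type or types drove, per the labels' protocols, Red Stinger, a red fluorescent protein of the nucleus, and labelled cells were sorted from dissociated tissue by fluorescence. The series' design text instead gives GFP as the label of the Tm1 and T1 line. The mixture therefore has RNA of T1 in it by design, no sample holds Tm1 alone, and the share of each type in the sort is not given, so a level in the mixture is not a level in Tm1. Labelling reports where a driver is active, so any other cell with driver activity would also be sorted. In bulk libraries such as these, fewer cells of a type and less RNA per cell cannot be told apart.

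Tm1, Tm2 and Tm9 are transmedullary neurons. Each sits in the columns of the medulla, carries signals about light decrements from the lamina to the lobula, and contacts T5, the first neuron of the OFF pathway that responds to the direction of motion. All are regarded as acetylcholine neurons, and they differ in how fast and how long they respond. T1 runs between lamina and medulla and is known for having very few output synapses.

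Levels are read counts scaled to a library total of 1000000 (CPM) after TMM scaling, given as the mean ± SD of 3 libraries or by library in the order of the library numbers. Reads in genes came to 72677109, 21784808 and 6147470 in the mixture, to between 15897266 and 21759658 in Tm2 and to between 19182846 and 25982776 in Tm9. A level of 0 in every library of a group allows up to 3 counts over that group. That is 0.0307 CPM in the mixture, 0.0477 CPM in Tm2 and 0.0426 CPM in Tm9. For Tm2 and Tm9 pooled, 3 counts over both are 0.0225 CPM. These limits cover counting error only, since no molecular identifiers tell reads of the same molecule apart. GEO lists 1 sample for each type, so p-values measure the spread between libraries, which may be technical. Differences are log2 fold changes from edgeR's quasi-likelihood test, with adjusted p-values by Benjamini-Hochberg over the 12569 genes. Each SE is the absolute log2 fold change divided by the square root of the F value of that test, not a fitted standard error. A gene was called at an adjusted p below 0.05 with a change of at least 1 on the log2 scale. In the main comparison the mixture was set against the mean of the log levels of Tm2 and Tm9, so a gene that is low in only one of them can be called higher. For genes named with a call in this comparison, the text says where the separate comparison with one type gave no call.

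The label of the mixture was examined first through genes of T1. Eaat1, a glutamate transporter, stood at 4602, 3923 and 753 CPM in the mixture libraries and at 32113 ± 4546 CPM in T1. Awh, a LIM-homeodomain factor, stood at 135, 140.1 and 28.1 CPM against 1032 ± 134 CPM in T1. Crz, the precursor of corazonin, stood at 66.2, 33.5 and 17 CPM against 513 ± 54.3 CPM in T1. In each case library 3 of the mixture was the lowest, and all mixture libraries were far below T1. CG32444, also a leading gene of T1, was at 0.306, 2.14 and 0 CPM in the mixture against 432 ± 57.7 CPM in T1. An antisense RNA gene, asRNA:CR45955, holds 28.6% of its exon bases. That antisense gene, like CG32444 among the 13 genes below, stood at 0.475% of its T1 level in the mixture. In 13 genes the T1 mean was at least 20 CPM and every T1 library at least 10 times every library of other single types. Over these 13 genes the median level in the mixture was 9.63% of that in T1, with a range of 0.189 to 17.3%. The library medians were 13.1%, 11.3% and 3.25%. If that median were the T1 share of the RNA, a gene without T1 reads would be lowered by 0.15 on the log2 scale in the mixture, and by 0.2 at the highest library median. The rule that sets genes aside uses the T1 level in full, so it removes genes to which T1 RNA at this share would add little.

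Genes that lead in another single type had reads in the mixture too. With no sample of Tm1 alone, reads of these genes from Tm1 and from Mi1 cells cannot be told apart. Mi1 is a medulla neuron of the ON pathway, and 3 genes met the same definition for it. The homeodomain gene bsh stood at 151, 134 and 82.7 CPM in the mixture, at 649 ± 68.3 CPM in Mi1, at 0.869 ± 1.01 CPM in Tm2 and at 0.257 ± 0.208 CPM in Tm9. Ugt36E1, a UDP-glycosyltransferase gene, stood at 27.3, 14.6 and 4.2 CPM in the mixture against 98.7 ± 9.58 CPM in Mi1. These genes had a median of 18.9% of their Mi1 level in the mixture, with 23.2%, 20.7% and 12.7% in libraries 1, 2 and 3. For the other 13 single types with such genes, Tm2 and Tm9 included, the median was at most 2.17%. Over the 12569 genes on the log2(CPM + 1) scale, the profile of the mixture had a Pearson correlation of 0.974 with Mi1, 0.967 with sorted neurons, 0.964 with Tm3, 0.947 with Tm9, 0.946 with Tm2 and 0.926 with T1. These are correlations across genes, which are not independent replicates. The 3 mixture libraries correlated with each other at 0.97 to 0.987. The part of Mi1 cells in any result below was not tested, and the Mi1 level is given for the genes named below as called higher whose mean was larger in Mi1 than in the mixture, and for some others.

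The enzyme genes of 2 transmitters completed the check of the label. ChAT, choline acetyltransferase, stood at 1010.0, 852 and 966 CPM in the mixture, 979, 826 and 962 CPM in Tm2 and 1626, 1741 and 1781 CPM in Tm9. The mixture overlapped Tm2 and lay below every Tm9 library, and against the mean of both the difference of -0.42 (adjusted p = 0.611, SE 0.42) was not called. T1 had 7.44 ± 2.72 CPM of ChAT, and 15.1% of the exon bases of ChAT are shared with VAChT on the same strand. Gad1, the glutamic acid decarboxylase that makes GABA, stood at 581, 588 and 223 CPM in the mixture, 5.12, 3.54 and 4.41 CPM in Tm2 and 15, 1.77 and 3.07 CPM in Tm9. All mixture libraries were above all libraries of the other pair, with a log2 fold change of 6.43 (adjusted p = 3.85e-09, SE 0.72). Gad1 stood at 25.1 ± 16.2 CPM in T1 and 16.3 ± 3.07 CPM in Mi1, and the types with the most were C3 (13280.3 CPM) and C2 (3915 CPM). The leading genes of C2 stood at a median of 0.262% of their C2 level in the mixture, and C3 had no gene that met the definition. Whether other labelled cells brought the Gad1 reads was not tested.

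**Figure D1:**
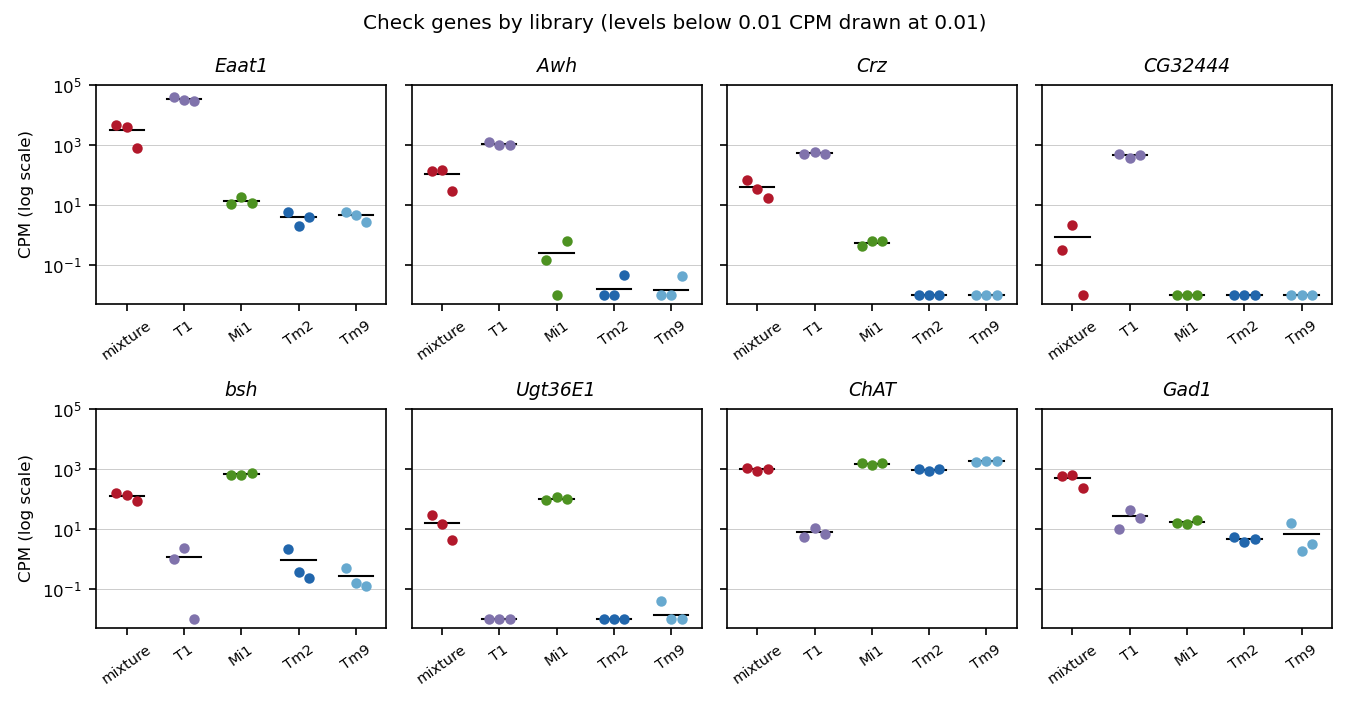
Levels of 8 genes in each library (points) and group means (bars) for the mixture, T1, Mi1, Tm2 and Tm9, in CPM on a log axis, with levels below 0.01 CPM drawn at 0.01. In the mixture, Eaat1, Awh and Crz sit between T1 and the pair of Tm2 and Tm9. There bsh and Ugt36E1 sit between Mi1 and that pair, ChAT is near Tm2, and Gad1 is far above Tm2 and Tm9.

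Against the mean of Tm2 and Tm9, 917 of the 12569 genes (7.3%) were called higher in the mixture and 237 (1.89%) lower. Of the 7091 genes kept, 648 (9.14%) were called higher and 149 (2.1%) lower. Of the 5478 set aside, 269 (4.91%) were called higher and 88 (1.61%) lower. Keeping a gene asks for a mixture level that is high against T1, so the share of higher calls among genes kept is not independent of the rule. Lower calls were also more frequent among genes kept than among those set aside. The part of the rule in either share was not tested. Every mixture library lay above every Tm2 and Tm9 library for 356 of the kept genes called higher (5.02% of those kept), and below all of them for 101 called lower (1.42%). Over all genes tested these shares were 4.0% and 1.18%. Over all genes tested the median log2 difference was 0.0. Against Tm2 alone, 609 kept genes (8.59%) were called higher and 217 (3.06%) lower, and over all genes tested 6.99% and 2.87%. Against Tm9 alone, 496 (6.99%) were called higher and 296 (4.17%) lower, and over all genes tested 5.7% and 3.7%. Without library 1 or library 2 of the mixture, the lower calls against Tm9 numbered 190 and 195. The 2 separate comparisons share the mixture libraries.

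**Figure D2:**
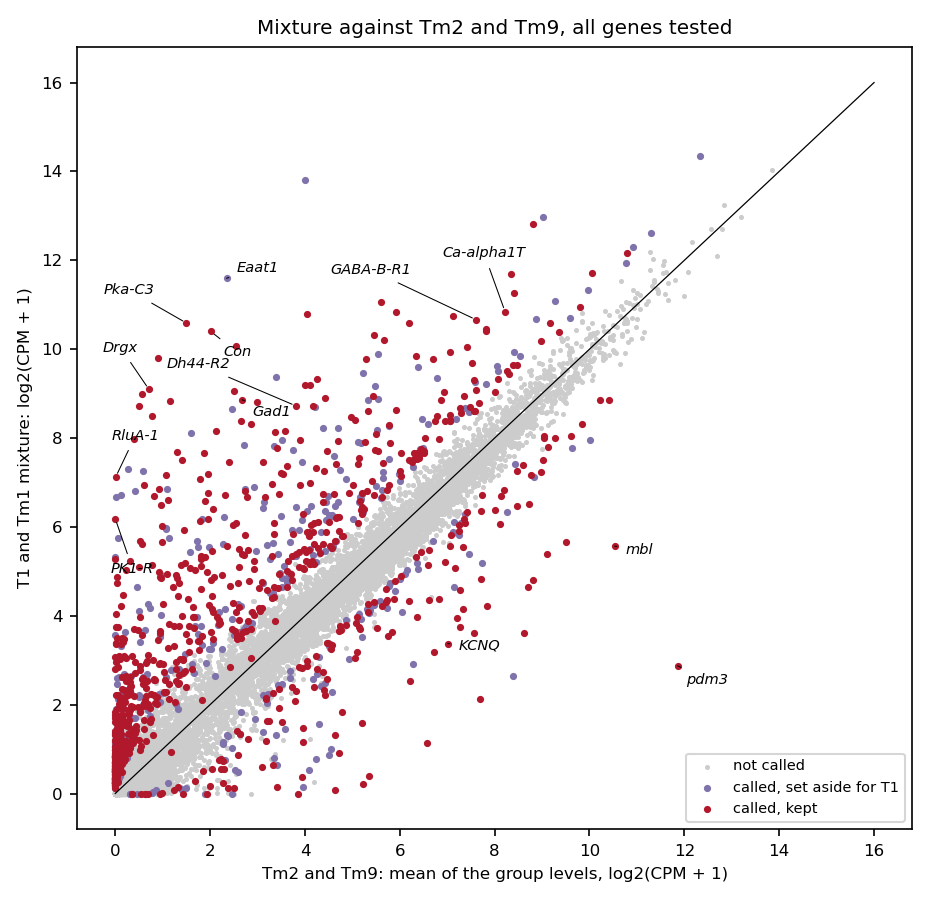
Mean level of each of the 12569 genes in the mixture (vertical axis) against the mean of the Tm2 and Tm9 group levels (horizontal axis), both as log2(CPM + 1), with the line of equal levels. Red points are called genes that were kept, purple ones called genes set aside for T1, grey ones not called. More called genes lie above the line than below it, and pdm3 lies farthest below it among the labelled genes.

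Of the kept genes called higher, 184 had at least 20 CPM in the mixture and no overlap with Tm2 or Tm9. Both Tm2 and Tm9 were under 5 CPM for 54 of them. The T1 mean was under 0.1 of the mixture mean for 102. Mi1 was above the mixture for 59, at or above 0.5 of it for 115 and under 0.1 of it for 23. How many of all genes tested meet each of these limits was not counted. These counts therefore describe the 184 genes and do not set them apart from other genes. The mixture mean was above the mean of each of the 17 single types for 35, and for 15 of these every mixture library was above every library of every single type. For Tm2 and Tm9 this was already required of the 184 genes, and for T1 a mean no higher than that of the mixture was. The same was not counted over all genes tested. Among those 15, the next highest type was Mi1 for 7. When another type was highest, it was most often T2, with 38 genes, then Mi1 with 21, C3 with 17 and Lawf1 with 13. The T2 libraries stand apart, with 9444398, 2531086 and 602175 reads in genes, TMM factors of 0.485, 0.548 and 0.697, which raise their CPM, and the lowest profile correlation with the mixture, 0.819. Their part in this ranking was not tested.

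RluA-1, PK1-R, Dh44-R2 and GABA-B-R1 were given with the question as markers of the mixture, and all 4 belong to those 15 genes. RluA-1, a gene of the pseudouridine synthase family (chromosome 2L, 10463340 to 10474349, minus strand of BDGP6), stood at 98.6, 111 and 206 CPM in the mixture. Tm2 had no read of it and Tm9 had 1. The ratio to both types pooled was 18449 (3311 to 728697) with its 95% counting interval (adjusted p = 3e-07). T1 had 0.0798 CPM and the highest single type, Mi1, 0.556 CPM, so the reads were nearly confined to the mixture among the groups measured one type at a time. Sorted neurons had 8.36 CPM.

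PK1-R, a receptor for pyrokinin peptides (chromosome 3R, 14099832 to 14103122, minus strand), stood at 79.6, 63.8 and 72.2 CPM in the mixture. Neither Tm2 nor Tm9 had a read, so the mixture was at least 3194-fold higher than both pooled (adjusted p = 3.27e-07 against the mean). Against Tm2 and Tm9 alone the bounds were 1507.5-fold and 1686-fold. The highest single type was Tm5c with 12 CPM, and sorted neurons had 0.0642 CPM. Dh44-R2, a receptor for the diuretic hormone DH44 (chromosome 2R, 12474424 to 12487986, plus strand), stood at 569, 383 and 313 CPM in the mixture, 9.8, 14.1 and 9.62 CPM in Tm2 and 16.2, 14.5 and 14.8 CPM in Tm9. The groups did not overlap and the log2 fold change was 5.02 (adjusted p = 8.6e-21, SE 0.26). Dh44-R2 shares 16.8% of its exon bases with CG34234 on the other strand, and the library kits do not mark strand. Mi1 had 241 ± 42.6 CPM of Dh44-R2.

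GABA-B-R1, a subunit of the G protein-coupled GABA receptor (chromosome 2L, 15016331 to 15034704, plus strand), stood at 1449, 1318 and 2092 CPM in the mixture, 155, 160.3 and 158 CPM in Tm2 and 254, 186 and 278 CPM in Tm9. The libraries did not overlap, with a log2 fold change of 3.06 (adjusted p = 1.47e-23, SE 0.14). Here all groups express the gene and the mixture has the most, above T1 with 778 ± 35.1 CPM, Mi1 with 697 ± 22.9 CPM and the highest single type, Dm12, with 1104 CPM. Of the 4 genes, GABA-B-R1 is thus a difference of degree and RluA-1 and PK1-R are differences between reads and almost none.

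The other 11 genes of that kind were ckn, CG42458, Rab27, Tsp42En, CG12836, CG34234, CG2841, GEFmeso, ppk26, CG31915 and CG34251, of which CG34234 is the gene that overlaps Dh44-R2. Tsp42En, a tetraspanin, stood at 221, 175 and 359 CPM in the mixture, 0.368 ± 0.637 CPM in Tm2, 0.276 ± 0.203 CPM in Tm9 and 46.7 ± 17.8 CPM in Mi1. CG42458, which has no name in the annotation, stood at 506, 381 and 644 CPM, and its next highest type was T5 with 224.0 CPM. ppk26, a subunit of degenerin-type sodium channels known from larval nociceptors, stood at 60.7, 18.1 and 34.9 CPM. It had no read in Tm2 or Tm9 and was at least 1685-fold higher than both pooled (adjusted p = 3.31e-07 against the mean). CG42458 and ppk26 are neighbours on chromosome 3L, at 7423827 to 7454717 and 7456149 to 7458608. Rab27, a small GTPase of vesicle traffic, was at 478.0 CPM in the mixture and 330.4 CPM in Mi1, its next highest type.

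Of the remaining leading genes called higher, Drgx, a paired-type homeodomain factor, stood at 561, 461 and 616 CPM in the mixture, 0.3 ± 0.234 CPM in Tm2 and 1.06 ± 0.604 CPM in Tm9, a log2 fold change of 9.87 (adjusted p = 1.52e-12, SE 0.81). Mi1 had only 1.77 CPM and T1 2.95 CPM of Drgx, and the type with the most was T5 with 817 CPM. Pka-C3, a catalytic subunit related to protein kinase A, stood at 1196, 1021 and 2398 CPM against 2.65 ± 0.539 and 1.2 ± 0.695 CPM, a log2 fold change of 9.75 (adjusted p = 9.14e-15, SE 0.69), with 995 ± 61.4 CPM in Mi1. No mixture library of Drgx or Pka-C3 overlapped Tm2 or Tm9, which the rule for naming leading genes required.

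Pde11, a cyclic nucleotide phosphodiesterase, stood at 411, 291 and 376 CPM against 0.995 ± 0.918 and 0.481 ± 0.207 CPM, a log2 fold change of 8.97 (adjusted p = 1.14e-15, SE 0.60), and was higher still in Mi1 at 790.1 ± 75.5 CPM. sosie, a membrane protein gene studied in the ovary, stood at 1225, 952 and 486 CPM against 0.822 ± 0.522 and 0.931 ± 0.439 CPM, and Mi1 had 4243 ± 233 CPM. CG14340 stood at 339.8, 326 and 595 CPM against 0.416 ± 0.432 and 0.415 ± 0.327 CPM. For sosie the Mi1 level was several times the mixture level, while for CG14340 it was below it, at 104.2 ± 13.7 CPM.

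Ret, a receptor tyrosine kinase, stood at 39.5, 20.9 and 17 CPM in the mixture with 2 reads in Tm2 and 1 in Tm9, a ratio of 1147 (392 to 5559.5) to both pooled, and at 35 ± 0.611 CPM in Mi1. t-Grip128, a testis-type protein of the gamma-tubulin ring complex, stood at 29.2, 32.5 and 23.6 CPM with no read in Tm2 and 4 in Tm9, and at 27.9 ± 1.39 CPM in Mi1. CG12836 stood at 100.1, 113 and 129 CPM, with no read in Tm2, 2.55 ± 1.95 CPM in Tm9 and 41.3 ± 6.09 CPM in T1, its next highest type. CG12994 stood at 312, 297 and 395 CPM, with no read in Tm2 and 38.5 ± 12.3 CPM in Tm9, but it lies wholly within exonic sequence of CG46464 on the same strand, so its counts are uncertain.

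**Figure D3:**
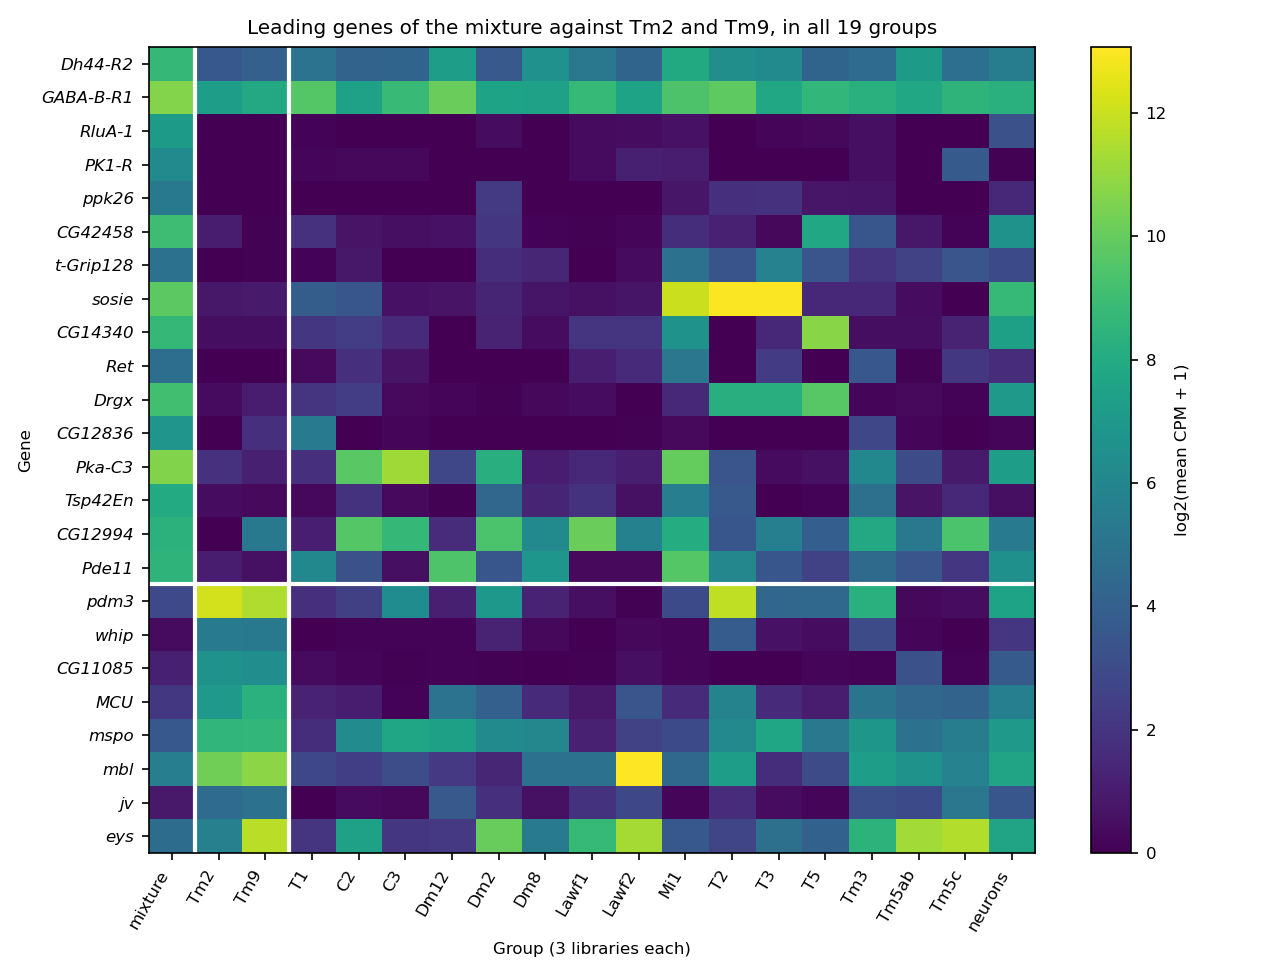
Mean levels, as log2(mean CPM + 1), of Dh44-R2, GABA-B-R1, the 14 leading genes called higher in the mixture and the 8 leading genes called lower, in all 19 groups of 3 libraries. White lines separate the mixture, then Tm2 and Tm9, from the other groups, and the genes called higher from those called lower. RluA-1, PK1-R and ppk26 are brightest in the mixture, sosie is brighter in Mi1, T2 and T3, and pdm3 is dark in the mixture and bright in Tm2 and Tm9.

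Lower calls were fewer, and 61 kept genes called lower had at least 20 CPM in both Tm2 and Tm9 and no overlap. The mixture was at or below 0.125 of the mean of Tm2 and Tm9 for 18 of them and under 5 CPM for 5. Mi1 was under 0.1 of that mean for 17. How many of all genes tested meet these limits was not counted either. pdm3, a POU-homeodomain factor (chromosome 2R, 8327490 to 8396280, plus strand), stood at 4.6, 8.44 and 5.98 CPM in the mixture, 4683, 3859.5 and 5343 CPM in Tm2 and 3262, 2519 and 3127 CPM in Tm9. The gap was wider than for any other gene of this kind, with a log2 fold change of -9.20 (adjusted p = 5.15e-13, SE 0.75). T1 had 2.49 ± 0.987 CPM and Mi1 6.7 ± 2.18 CPM, so both were low as well.

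whip, which lies inside the span of pdm3 on the other strand, stood at 0.218, 0.743 and 0 CPM in the mixture against 40.9 ± 9.57 and 38.7 ± 17.2 CPM, a log2 fold change of -6.75 (adjusted p = 3.14e-06, SE 1.06). CG11085, a homeodomain gene, stood at 0.51, 1.97 and 1.13 CPM against 105.1 ± 3.67 and 83.4 ± 10.5 CPM, a log2 fold change of -6.32 (adjusted p = 6.02e-07, SE 0.89). MCU, the pore of the mitochondrial calcium uniporter, stood at 3.01, 5.82 and 1.29 CPM against 129 ± 24.1 and 324 ± 113 CPM, a log2 fold change of -5.84 (adjusted p = 2.97e-07, SE 0.80). All these were low in T1 and Mi1 as well, at 2.02 CPM or less. jv, a gene of bristle actin bundles that lies inside MCU on the other strand, stood at 0.889 CPM in the mixture against 22.5 and 28.4 CPM. Because the library kits do not mark strand, reads of unspliced pdm3 RNA within whip cannot be told apart from its own. The same holds for MCU and jv, so whip and jv may not be separate differences, which was not tested.

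mbl, the splicing regulator muscleblind, stood at 73.9, 46.5 and 18.9 CPM in the mixture, 1224 ± 409 CPM in Tm2 and 1791 ± 428 CPM in Tm9, a log2 fold change of -4.98 (adjusted p = 1.99e-14, SE 0.39). mspo, an extracellular matrix protein of the spondin group, stood at 12, 17.3 and 4.2 CPM against 389 ± 24.8 and 398 ± 33.7 CPM, a log2 fold change of -5.09 (adjusted p = 3.25e-14, SE 0.41). eys, a matrix proteoglycan known from the eye, stood at 40, 19.5 and 12.1 CPM against 51.6 ± 5.32 and 3329 ± 850.3 CPM, a log2 fold change of -4.09 (adjusted p = 9.38e-10, SE 0.44). mbl and mspo were of like level in Tm2 and Tm9, whereas eys was not called against Tm2 (adjusted p = 0.0792) and most of its gap lies between the mixture and Tm9.

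The threshold on T1 passes through genes of ordinary levels. The kept genes called higher nearest to it were miple2, MtnF and puc, with 20.6, 32.9 and 110.4 CPM in the mixture and 19.8, 31.1 and 103.8 CPM in T1. Just set aside were CG42747, CG12730 and gogo, with 59.7, 52.9 and 44.2 CPM in the mixture and 59.7, 54 and 46.5 CPM in T1. The calls of MtnF (adjusted p = 0.0697) and gogo (adjusted p = 0.0548) were lost without library 1 of the mixture, that of miple2 (adjusted p = 0.0838) without library 2 and that of MtnF also without library 3 (adjusted p = 0.0545). MtnF was not called against Tm9 (adjusted p = 0.114), nor were CG42747 (adjusted p = 0.592) and gogo (adjusted p = 0.425) against Tm2, and puc differed from Tm2 by 0.87 (adjusted p = 0.0251, SE 0.28), short of the fold threshold. Genes on the other strand share 19.2% of the exon bases of miple2, 18.7% of those of MtnF and 26.7% of those of CG12730.

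Gene lists of neuronal function follow, each with its members called in the main comparison among those tested, genes set aside for T1 included. The shares over all genes tested, 7.3% higher and 1.89% lower, are the background for each list. For calls without overlap they are 4.0% and 1.18%. Against Tm2 alone they are 6.99% and 2.87%, and against Tm9 alone 5.7% and 3.7%. Of the genes kept, 9.14% were called higher and 2.1% lower. Shares over all genes are not given here for DESeq2 calls or for counts at an unadjusted p. In lists without a lower call, edgeR gave, at an unadjusted p below 0.05, 2 lower glutamate receptors, 2 lower monoamine receptors, 3 lower Beat and Side genes, 2 lower active zone genes and 0 lower GABA receptors, and DESeq2 called 1 of the glutamate receptors lower and none of the others. Genes named from here on beyond the 4 called members with the largest change in each list were chosen after their values were seen.

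Genes of acetylcholine synthesis, uptake and breakdown gave no call in 3 tested by edgeR, none at an unadjusted p below 0.05 and none by DESeq2. The choline transporter ChT stood at 107, 63.8 and 37.2 CPM in the mixture, 29.9 ± 12.4 CPM in Tm2 and 268 ± 56.9 CPM in Tm9, and was called lower than in Tm9, by -1.94 (adjusted p = 0.0105, SE 0.54), and not against the mean. Since 69.5% of the exon bases of ChT are shared with CG46318 on the same strand, its counts are uncertain. Acetylcholinesterase, Ace, stood at 1938, 1779 and 2401 CPM against 3065 ± 191 and 1215 ± 209 CPM. Among 4 genes of glutamate, GABA and histamine release, Gad1 and VGlut were called higher. VGlut, the vesicular glutamate transporter, stood at 15.9, 7.91 and 14.2 CPM against 2.94 ± 0.647 and 2.11 ± 1.77 CPM, and was set aside with 20.1 ± 13.3 CPM in T1. The vesicular GABA transporter VGAT, in contrast to Gad1, differed by 0.15 (adjusted p = 0.665, SE 0.17) and was not called.

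Of 10 monoamine synthesis and transport genes, 3 were called higher and 1 lower. The aromatic amino acid decarboxylase Ddc stood at 434, 190.2 and 114 CPM against 10.1 ± 2.69 and 10.8 ± 2.46 CPM, and was set aside with 290.4 ± 34.2 CPM in T1, while Mi1 had 279 ± 65.3 CPM. Vmat, the vesicular monoamine transporter, stood at 6.35 CPM against 0.259 and 0.626 CPM, and DAT, the dopamine transporter, at 3.62 CPM with no read in Tm2 and 0.082 CPM in Tm9. A gene on the other strand shares 26.2% of the exon bases of Vmat. Tyrosine hydroxylase, ple, was called lower at 3.76 CPM against 3.6 and 20.6 CPM (adjusted p = 0.0436), a call that was lost without any one library of Tm2 or Tm9 or without library 1 or 2 of the mixture (adjusted p from 0.0673 to 0.44). It was also lost under DESeq2 (adjusted p = 0.0557), with DESeq2's size factors in edgeR (adjusted p = 0.0693), without the filter on low counts (adjusted p = 0.0831) and in a fit of the 12 libraries of the mixture, T1, Tm2 and Tm9 (adjusted p = 0.289). Against Tm2 alone ple was not called (adjusted p = 0.898), and against Tm9 the log2 fold change was -2.72 (adjusted p = 0.000283, SE 0.55). All of these other than Ddc had means under 21 CPM in the mixture, Tm2, Tm9, T1 and Mi1. Dm2 had 2184 CPM of Vmat, 135.7 CPM of DAT and 327.5 CPM of ple.

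Of 10 nicotinic acetylcholine receptor subunits, 2 were called higher and 1 lower, with a median log2 fold change of 0 over the list. Against Tm2 alone 2 were called higher and 3 lower, and against Tm9 alone 1 and 1. nAChRalpha3 stood at 365, 248 and 381 CPM in the mixture, 24.5, 43.6 and 27.9 CPM in Tm2 and 282, 306 and 436 CPM in Tm9. It was above every Tm2 library, by 3.37 (adjusted p = 1.52e-16, SE 0.23), and overlapped Tm9, where the difference of -0.04 (SE 0.21) was not called. nAChRalpha5 was likewise low in Tm2 and not called against Tm9 (adjusted p = 0.418), with 297 ± 129 CPM in the mixture, 1.81 ± 0.808 CPM in Tm2 and 237 ± 54.8 CPM in Tm9, and was set aside with 728 ± 42.1 CPM in T1.

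nAChRalpha2 was the subunit called lower, at 44.9, 33.1 and 25.2 CPM against 128 ± 14.9 and 71 ± 13.2 CPM, a log2 fold change of -1.46 (adjusted p = 2.65e-06, SE 0.23). nAChRalpha6 stood between the other groups, at 159.6 ± 18.9 CPM against 767 ± 218 CPM in Tm2 and 28.6 ± 8.42 CPM in Tm9, and was not called against their mean. Of 3 muscarinic receptors, mAChR-A was called higher. It stood at 129, 100.0 and 89.3 CPM in the mixture, 1.47, 1.34 and 3.22 CPM in Tm2 and 196, 154 and 238 CPM in Tm9, so the call rests on Tm2, and against Tm9 the log2 fold change was -0.88 (adjusted p = 0.000985, SE 0.20), short of the fold threshold. The Mi1 means were 378 CPM for nAChRalpha3, 628 CPM for nAChRalpha5 and 382 CPM for mAChR-A.

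Of 7 GABA receptor genes, 3 were called higher and none lower, and the 3 had been kept. Besides GABA-B-R1, these were GABA-B-R3 and CG8916. GABA-B-R3 stood at 209, 203 and 191 CPM in the mixture, 374, 166 and 362 CPM in Tm2 and 27.9, 24.3 and 26.4 CPM in Tm9. The mixture overlapped Tm2, where the log2 fold change of -0.58 (adjusted p = 0.324, SE 0.36) was not called. It lay above Tm9, with a log2 fold change of 2.94 (SE 0.39). CG8916, an ionotropic receptor subunit gene, stood at 40.1, 14.6 and 7.92 CPM against 1.38 ± 0.601 and 1.65 ± 1.28 CPM, a log2 fold change of 3.82 (adjusted p = 2.78e-06, SE 0.58). The histamine-gated chloride channel genes ort and HisCl1 were not called by edgeR or DESeq2 and did not reach an unadjusted p below 0.05, with 55.1 ± 40.9 CPM of ort in the mixture, 161 ± 27.8 CPM in Tm2 and 10.1 ± 9.05 CPM in Tm9.

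Of 16 glutamate receptor genes, 4 were called higher and none lower. mGluR, the metabotropic glutamate receptor, stood at 765, 507 and 489 CPM in the mixture, 52.1, 26.1 and 69.2 CPM in Tm2 and 6.61, 2.67 and 2.87 CPM in Tm9, without overlap and with a log2 fold change of 5.37 (adjusted p = 1.02e-12, SE 0.45). GluRIA, an AMPA-type subunit, stood at 73.5, 43.4 and 27.6 CPM against 0.329 ± 0.57 and 0.633 ± 0.295 CPM, a log2 fold change of 6.81 (adjusted p = 2.32e-16, SE 0.46). GluRIB, its relative, stood at 78.3, 41.5 and 29.4 CPM against 0.486 ± 0.123 and 1.67 ± 1.25 CPM, a log2 fold change of 5.81 (adjusted p = 3.83e-19, SE 0.34). These 3 genes were at least as high in Mi1, with 629.9, 252 and 119 CPM. Ekar, a kainate-type subunit, stood at 12.1 ± 5.79 CPM against 1.06 ± 0.275 and 24.8 ± 10.3 CPM, so it was called higher than in Tm2 and, by -1.02 (adjusted p = 0.0426, SE 0.35), lower than in Tm9, and without library 1 of the mixture the call against the mean was lost (adjusted p = 0.129).

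Monoamine receptor genes were called higher in 11 of 17, of which 8 had been kept, 6 did not overlap and none was called lower. The median log2 fold change over the 17 was 2.43, against 0.0 over all genes tested. Octbeta1R, a beta-type octopamine receptor, stood at 1501, 1336 and 1010.3 CPM in the mixture, 23.7, 13.5 and 22.7 CPM in Tm2 and 132, 78.7 and 63.6 CPM in Tm9, a log2 fold change of 4.91 (adjusted p = 2.42e-11, SE 0.46). Dop2R, a D2-type dopamine receptor, stood at 267, 217 and 374 CPM in the mixture, 0.954, 2.32 and 1.85 CPM in Tm2 and 43.2, 22.9 and 86.8 CPM in Tm9, a log2 fold change of 4.94 (adjusted p = 1.68e-14, SE 0.37). In neither gene did the groups overlap. Mi1 had more Octbeta1R than the mixture, at 2129 ± 17 CPM, and far less Dop2R, at 13.4 ± 5.06 CPM, and T1 had 9.54 CPM of Dop2R.

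5-HT2B, a serotonin receptor, stood at 120.4, 83.7 and 97.4 CPM in the mixture and 50.8, 35 and 47 CPM in Tm9, with 3 reads in Tm2. Its ratio to Tm2 was 2108 (721 to 10223), and against Tm9 the log2 fold change of 1.18 (adjusted p = 0.151, SE 0.54) was not called. 5-HT1A, with 211 ± 27 CPM against 0.278 ± 0.266 and 139 ± 22.3 CPM, was set aside for its 1069.6 ± 72 CPM in T1, and so were 5-HT1B and Octbeta2R. Against Tm9, 5-HT1A (adjusted p = 0.4) and Octbeta2R (adjusted p = 0.3) were not called. Octalpha2R stood at 276, 227 and 514 CPM in the mixture, 505, 590.0 and 549 CPM in Tm2 and 0.878, 1.26 and 0.902 CPM in Tm9. Its call against the mean therefore came from Tm9, and against Tm2 the log2 fold change was -0.69 (SE 0.29), short of the fold threshold and not called.

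Neuropeptide receptor genes were called higher in 20 of 39 and lower in 2. The higher calls held 16 kept genes, 14 did not overlap, and the median log2 fold change was 2.37, or 2.29 with genes without a read in a group put at the bound their floor gives. FMRFaR, a receptor for FMRFamide peptides, stood at 52, 27.9 and 20.5 CPM in the mixture and 1.02 ± 0.823 CPM in Tm9 and had no read in Tm2, so it was at least 702-fold higher than in Tm2 (adjusted p = 5.94e-11 against the mean). Dh31-R, a receptor for the peptide DH31, stood at 38.4, 38.8 and 18.4 CPM in the mixture and 0.366 ± 0.354 CPM in Tm2, with 1 read in Tm9. PK2-R1, a second pyrokinin receptor, stood at 8.64, 12.3 and 9.69 CPM against 0.063 ± 0.0217 and 0.229 ± 0.397 CPM (adjusted p = 0.000122). SPR, the sex peptide and MIP receptor, stood at 117, 77.7 and 138 CPM against 1.48 ± 0.676 and 16.9 ± 2 CPM, a log2 fold change of 4.48 (adjusted p = 1.43e-11, SE 0.43).

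For these peptide receptors the Mi1 levels were 79 CPM for FMRFaR, 108 CPM for Dh31-R and 2.14 CPM for PK2-R1, the first 2 above the mixture. Of the 39 receptors, 17 were called higher than in Tm2 and 18 higher than in Tm9, against 6.99% and 5.7% of all genes. Pdfr and AstA-R1 were called against Tm9 and not against Tm2. Pdfr, the receptor of the clock peptide PDF, stood at 97.7, 90.3 and 179 CPM in the mixture, 146, 120.2 and 133 CPM in Tm2 and 0.535, 1.31 and 0.082 CPM in Tm9. AstA-R1, an allatostatin A receptor, stood at 208 ± 29.1 CPM in the mixture, 359.8 ± 13.3 CPM in Tm2 and 5.04 ± 2.14 CPM in Tm9. Against Tm2 the differences were -0.13 (SE 0.45) for Pdfr and -0.79 (SE 0.38) for AstA-R1, and Mi1 had 431 CPM of AstA-R1.

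Of the receptors called lower, TrissinR, the receptor of the peptide trissin, stood at 7.57, 5.16 and 1.62 CPM in the mixture, 90.5, 62.4 and 74.5 CPM in Tm2 and 93.8, 60.6 and 57.9 CPM in Tm9, without overlap, a log2 fold change of -3.85 (adjusted p = 1.94e-06, SE 0.59). The other was CCHa2-R, set aside for T1, with 0.557 CPM in the mixture, 0.699 CPM in Tm2 and 65 CPM in Tm9, and it was not called against Tm2 (adjusted p = 0.746).

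**Figure D4:**
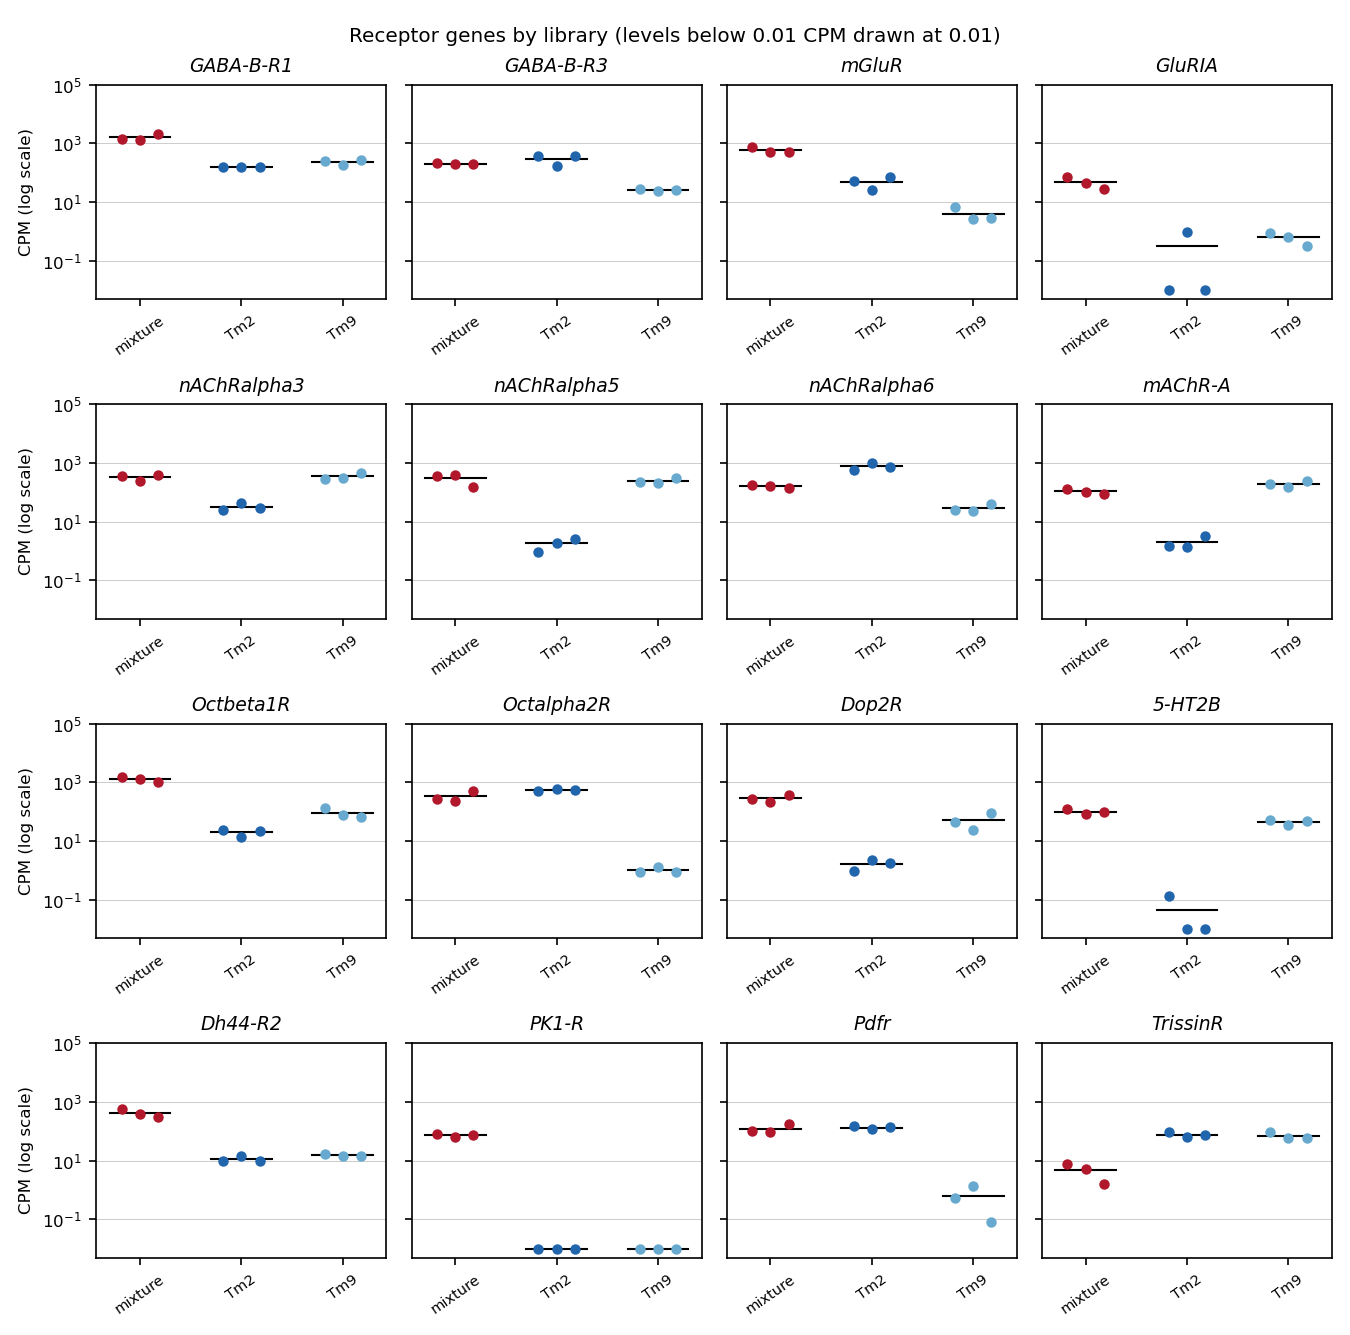
Levels of 16 receptor genes in each library (points) and group means (bars) of the mixture, Tm2 and Tm9, in CPM on a log axis, with levels below 0.01 CPM drawn at 0.01. Dh44-R2, PK1-R, mGluR, GluRIA, Octbeta1R and Dop2R are above both other types in the mixture, nAChRalpha3, nAChRalpha5 and mAChR-A are low in Tm2 alone, Octalpha2R and Pdfr are low in Tm9 alone, and TrissinR is low in the mixture.

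Of 29 neuropeptide precursor genes tested, 10 were called higher and 1 lower, with a median log2 fold change of 1.01, or 0.68 at the bounds. DESeq2 called 8 higher and 3 lower. Tk, the tachykinin precursor, stood at 4233, 2695 and 2995 CPM in the mixture, 1056, 1063 and 975.0 CPM in Tm2 and 77.3, 135 and 93.1 CPM in Tm9, without overlap, a log2 fold change of 3.35 (adjusted p = 8.66e-06, SE 0.54). The separate log2 fold changes were 1.68 (adjusted p = 0.0847, SE 0.66) against Tm2, which was not called, and 5.02 (adjusted p = 3.14e-06, SE 0.76) against Tm9. spab, a peptide precursor gene, stood at 178, 92 and 175 CPM against 3.34 ± 0.229 and 28 ± 5.86 CPM, and Nplp1, another, at 90.8, 72.5 and 32.3 CPM against 5.84 ± 1.9 and 3.56 ± 1.01 CPM. Mi1 had means of 3924 CPM of Tk and 176 CPM of Nplp1. The precursors with the largest fitted changes, Crz, CCHa1, Dh31 and CCHa2, had no read in Tm2 or Tm9. Crz is a T1 gene, and the other 3 were under 1 CPM in the mixture. Those 3 were at least 42.9-fold, 28.7-fold and 8.2-fold higher than in both types pooled. Without library 1 of the mixture the calls of Dh31 (adjusted p = 0.101) and CCHa2 (adjusted p = 0.422) were lost, and that of CCHa2 also without any one library of Tm2 or Tm9 (adjusted p from 0.0687 to 0.0836) and under the block for the library number (adjusted p = 0.0774). Under DESeq2 the call of CCHa1 was lost (adjusted p = 0.15) and CCHa2 had no adjusted p. Neither Dh31 (adjusted p = 0.0847 and 0.0742) nor CCHa2 (adjusted p = 0.152 and 0.142) was called against Tm2 or Tm9 alone, and Mi1 had 3.96 CPM of Dh31. sNPF, not called against the mean, was called higher than in Tm2 and lower than in Tm9, with 45.5 ± 31.1 CPM in the mixture, 2.36 ± 2.28 CPM in Tm2 and 519 ± 247 CPM in Tm9.

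Of 56 homeodomain factor genes tested, 18 were called higher, 15 of them kept, and 3 lower. The median log2 fold change was 1.04, or 0.77 at the bounds. Besides Drgx and bsh, the kept ones with over 20 CPM in the mixture were ct, toy and TfAP-2. ct, the factor cut, stood at 1065, 943 and 1478 CPM in the mixture, 636 ± 49.6 CPM in Tm2 and 397 ± 55.5 CPM in Tm9, a log2 fold change of 1.21 (adjusted p = 0.000661, SE 0.26), and was not called against Tm2 (adjusted p = 0.0585). toy, a Pax6 gene, stood at 90, 93.9 and 22.8 CPM against 1.8 ± 1.04 and 3.24 ± 1.07 CPM, a log2 fold change of 4.84 (adjusted p = 4.81e-07, SE 0.67). TfAP-2, listed with this set although its DNA-binding domain is of another class, was not called against Tm2 (adjusted p = 0.339), with 159.7 ± 17 CPM in the mixture, 302 ± 52.4 CPM in Tm2 and 0.156 ± 0.139 CPM in Tm9.

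Awh, hbn and oc were called higher and set aside, with 1294 CPM of hbn and 459 CPM of oc in T1. Besides pdm3 and CG11085, the gene called lower was vvl, set aside for T1, which was at 0.442 CPM in the mixture and 0.38 CPM in Tm2, where it was not called (adjusted p = 0.651), against 208 ± 59.2 CPM in Tm9. hth, a TALE-class homeodomain factor, had a fold change under the threshold, 0.77 (adjusted p = 3.19e-05, SE 0.14), with 537, 516 and 545 CPM in the mixture.

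Of 52 other transcription factor genes tested, 15 were called higher, 9 of them kept, and 1 lower, with a median log2 fold change of 1.0, or 0.86 at the bounds. DESeq2 called 15 higher and 3 lower. Hey, a target of Notch signalling, stood at 88, 103 and 300.3 CPM against 3.77 ± 1.49 and 30.6 ± 5.23 CPM, a log2 fold change of 3.93 (adjusted p = 5.32e-11, SE 0.39). pros, the factor prospero, stood at 238, 203 and 81.7 CPM against 5.85 ± 2.66 and 10.1 ± 5.16 CPM, a log2 fold change of 4.51 (adjusted p = 5.69e-09, SE 0.52). erm, a zinc finger factor, stood at 249 ± 35 CPM in the mixture, 153 ± 58.2 CPM in Tm2 and 0.434 ± 0.716 CPM in Tm9, and was not called against Tm2 (adjusted p = 0.553), and Mi1 had 249 CPM. mamo was the factor called lower, at 462 ± 42.1 CPM against 871 ± 203 and 2127 ± 309.7 CPM, with a change of -0.91 (adjusted p = 0.00126, SE 0.21) from Tm2, short of the fold threshold. fd59A and Sox102F were called higher and set aside for T1, and fkh and grn were called at 3.29 and 0.505 CPM, with 4.76 CPM of fkh in Mi1.

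Dpr and DIP proteins are immunoglobulin surface proteins that bind each other across cells. Of 32 such genes, 10 were called higher, 9 of them kept, and 5 lower. dpr1 stood at 58.2, 30 and 12.8 CPM in the mixture, 0.718 ± 0.201 CPM in Tm2 and 6.05 ± 4.04 CPM in Tm9, a log2 fold change of 4.04 (adjusted p = 1.16e-10, SE 0.41). DIP-kappa stood at 17.8, 18.3 and 0.969 CPM in the mixture, with 1 read in Tm2 and 5 in Tm9 (adjusted p = 3.01e-08), and at 9.98 ± 1.43 CPM in Mi1. Library 3 of the mixture was far below the other 2 for DIP-kappa. DIP-beta and DIP-delta were called at under 3 CPM, and DIP-beta lost its call without library 1 of the mixture (adjusted p = 0.464) and in the fit of 12 libraries (adjusted p = 0.129). Against Tm9 alone neither DIP-beta (adjusted p = 0.0588) nor DIP-delta (adjusted p = 0.103) was called. dpr10 and dpr13 were called lower, dpr10 at 14.5 ± 4.83 CPM against 101 ± 19.1 and 212 ± 31.6 CPM and dpr13 at 16.9 ± 10.8 CPM against 75.3 ± 10.3 and 338 ± 23.2 CPM.

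Of 3 further called members, each was called against only one of the types. dpr8 stood at 127 ± 36.8 CPM in the mixture, 1.94 ± 1.2 CPM in Tm2 and 101 ± 9.71 CPM in Tm9, and dpr18 at 311 ± 60, 269 ± 65.4 and 10.1 ± 4.1 CPM in the same order. DIP-eta, set aside for T1, was at 1.01 ± 1.1 CPM in the mixture and 0.613 ± 0.991 CPM in Tm9 against 339 ± 83.7 CPM in Tm2. Not called were dpr8 (adjusted p = 0.417) and DIP-eta (adjusted p = 0.709) against Tm9 and dpr18 (adjusted p = 0.743) against Tm2. Mi1 had 221 CPM of dpr8 and 704 CPM of dpr18.

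Beat and Side proteins form another family of paired surface proteins. Of 21 such genes tested, 11 were called higher, 8 of them kept, and none was called lower against the mean, with a median log2 fold change of 1.93. side-IV stood at 1172, 1024 and 1359 CPM in the mixture, 15.4, 10.6 and 5.92 CPM in Tm2 and 246, 173 and 243 CPM in Tm9, a log2 fold change of 4.61 (adjusted p = 3.67e-18, SE 0.28), but 50% of its exon bases lie in an antisense RNA gene whose reads cannot be told apart from its own. beat-VII stood at 156, 109 and 45.4 CPM against 0.847 ± 0.545 and 0.659 ± 0.544 CPM, a log2 fold change of 7.07 (adjusted p = 4.5e-15, SE 0.50). side-II stood at 152, 113 and 57 CPM against 1.88 ± 1.17 and 4.15 ± 1.29 CPM, a log2 fold change of 5.25 (adjusted p = 8.6e-21, SE 0.28). beat-IV stood at 38.6, 42.3 and 32.6 CPM against 5.63 ± 1.37 and 0.825 ± 0.445 CPM, a log2 fold change of 4.12 (adjusted p = 2.57e-06, SE 0.62). In Mi1, side-IV and side-II were at 999 and 402 CPM and beat-VII and beat-IV at 6.92 and 3.01 CPM, so the former pair was high there and the latter was not.

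Of 64 other adhesion and guidance genes tested, 16 were called higher, 10 of them kept, and 9 lower, 8 of them kept. Con, the leucine-rich repeat adhesion protein connectin, stood at 1316, 1179.5 and 1549 CPM in the mixture, 1.47, 0.232 and 1.9 CPM in Tm2 and 5.16, 6.16 and 7.95 CPM in Tm9. No libraries overlapped, the log2 fold change was 8.89 (adjusted p = 3.56e-26, SE 0.33), and Mi1 had 1412 ± 54.7 CPM. ed, an immunoglobulin protein that binds itself, stood at 56.1, 38.9 and 11.8 CPM against 0.388 ± 0.521 and 4.49 ± 1.59 CPM, and haf, a leucine-rich repeat protein, at 83.1, 104.3 and 114 CPM against 3.13 ± 0.201 and 18.3 ± 4.58 CPM. Mi1 had more of both, 138 ± 15.1 CPM of ed and 214 ± 39.6 CPM of haf. Lac was set aside with 403 ± 4.77 CPM in T1, as were Nrg, Sema2b and Dscam2, which fell short of the fold threshold against Tm9 at 0.98 (adjusted p = 0.000427, SE 0.21).

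Among the genes called lower, Ten-a, a teneurin, stood at 614, 393 and 378 CPM against 1196 ± 224 and 1179 ± 326 CPM, a log2 fold change of -1.36 (adjusted p = 4.91e-07, SE 0.20). Tl, the receptor Toll, stood at 214, 226 and 325 CPM against 652 ± 125 and 583 ± 83.7 CPM, a log2 fold change of -1.27 (adjusted p = 0.000257, SE 0.26). Both were below every library of the other groups. Dscam3, called lower against the mean and Tm2 and higher against Tm9, was high in Tm2 alone, with 19.5 ± 13.3 CPM in the mixture, 2677 ± 972 CPM in Tm2 and 2.6 ± 2.1 CPM in Tm9. robo2, also called lower, stood at 0.52 CPM in the mixture, 45.5 CPM in Tm2 and 0.566 CPM in Tm9, and was not called against Tm9 (adjusted p = 0.871).

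Of 33 voltage-gated and leak channel genes, 5 were called higher and 2 lower, all kept. Shawl, a potassium channel of the Kv3 family, stood at 56.4, 84 and 125 CPM in the mixture, 0.368 ± 0.494 CPM in Tm2 and 1.76 ± 0.935 CPM in Tm9, a log2 fold change of 6.85 (adjusted p = 5.97e-16, SE 0.47). It was above both types without overlap, and 14.2% of its exon bases lie in an antisense RNA gene. Shal, the Kv4 channel, was the other one above both types, at 486, 369 and 369 CPM against 120.0 ± 34.1 and 198 ± 72.8 CPM, a log2 fold change of 1.40 (adjusted p = 1.66e-07, SE 0.19).

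Of the other channel genes called, Shab, the Kv2 channel, was called against Tm2 and not Tm9, at 1409.5 ± 256 CPM in the mixture, 31.6 ± 9.15 CPM in Tm2 and 1579 ± 183 CPM in Tm9. eag, an ether-a-go-go potassium channel, was called against Tm9 and not Tm2, at 241 ± 77.1, 321 ± 36.4 and 3.66 ± 2.64 CPM in that order. KCNQ, the M-type potassium channel, was high in Tm2 alone, at 9.37 ± 3.74 CPM in the mixture, 1642 ± 305 CPM in Tm2 and 9.11 ± 5.07 CPM in Tm9, with 20.6% of its exon bases in an antisense RNA gene, and was not called against Tm9 (adjusted p = 0.977). Ca-alpha1T, the T-type calcium channel, lay between, at 1719, 1566 and 2232 CPM in the mixture, 5809, 5598 and 7662 CPM in Tm2 and 20.8, 14.1 and 4.02 CPM in Tm9. It was below every Tm2 library and above every Tm9 library, with log2 fold changes of -1.79 (adjusted p = 0.00271, SE 0.43) and 7.15 (adjusted p = 1.25e-13, SE 0.55), and Mi1 had 2319 CPM. The difference of Shab from Tm9 was -0.16 (SE 0.34) and that of eag from Tm2 -0.41 (SE 0.43), neither called, and such values do not show that the levels are equal.

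Of 22 genes of the active zone and of vesicle release, only Fife was called, as higher, by edgeR and by DESeq2. Fife, a scaffold protein of the active zone, stood at 2021, 1481 and 1968 CPM in the mixture, 4.42, 2.96 and 9.01 CPM in Tm2 and 568, 466 and 642 CPM in Tm9, a log2 fold change of 5.04 (adjusted p = 2.04e-19, SE 0.28) without overlap, with 831 ± 145 CPM in Mi1. brp, the central scaffold of the active zone, differed by 0.05 (adjusted p = 0.969, SE 0.19) and was not called, at 1665, 1284 and 1519.9 CPM in the mixture. Of 9 pan-neuronal genes, edgeR and DESeq2 called none, and 1 was higher and 1 lower at an unadjusted p below 0.05. Of 7 innexins, edgeR called none, and 1 was lower at an unadjusted p below 0.05 and by DESeq2. Of 7 activity-regulated genes, luna was called higher at 6.99 CPM against 0.471 and 1.08 CPM.

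**Figure D5:**
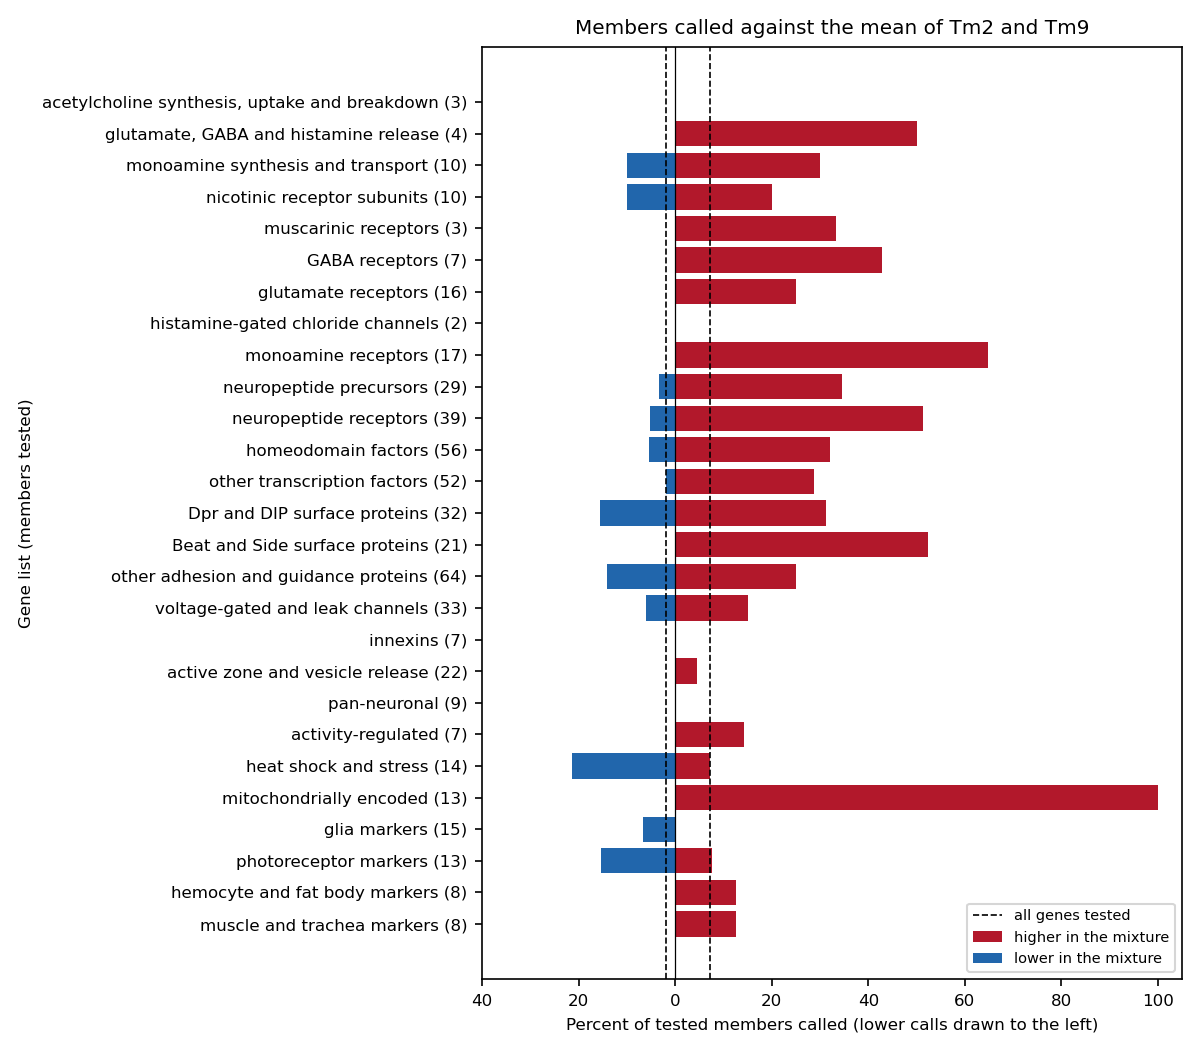
Percent of the tested members of 27 gene lists called higher in the mixture than in the mean of Tm2 and Tm9 (red, to the right) or lower (blue, to the left), with the number tested in parentheses and dashed lines at the shares over all genes tested, 7.3 and 1.89. Mitochondrially encoded genes, monoamine receptors, Beat and Side proteins and neuropeptide receptors have the longest red bars, and genes set aside for T1 are included.

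Genes of RNA quality, stress and other cells moved as follows, and their part in the results was not tested. All 13 mitochondrially encoded genes were called higher against the mean, 11 of them set aside for T1, and the median log2 fold change was 1.52. Their summed level was 22174.7 to 24679 CPM in the mixture, 3837 to 9334 CPM in Tm2, 10665 to 16742 CPM in Tm9, 26250.3 to 42214 CPM in T1 and 8680.2 to 12371 CPM in Mi1. Against Tm2 all 13 were called higher and against Tm9 only 1 was. mt:ATPase6 stood at 3418, 3098 and 3547 CPM in the mixture, 388, 1141 and 467 CPM in Tm2 and 1234, 2019 and 1794 CPM in Tm9, and was not called against Tm9 (adjusted p = 0.0584). Of 14 heat shock and stress genes, 3 were called lower and Hsp70Bb higher. Their summed level was 1322 to 2007 CPM in the mixture, 1772 to 6475 CPM in Tm2 and 2651 to 3626 CPM in Tm9. stv, a co-chaperone of Hsp70, was called lower at 177, 126 and 111 CPM against 424 ± 207 and 482 ± 50 CPM. Hsp68 stood at 53, 14.9 and 38.3 CPM in the mixture, 1045, 49 and 336 CPM in Tm2 and 102, 116 and 63.2 CPM in Tm9, a wide spread within groups. Its call was lost without library 2 (adjusted p = 0.123) or 3 (adjusted p = 0.0641) of the mixture or library 1 of Tm2 (adjusted p = 0.0887), that of Hsp70Bc without library 1 (adjusted p = 0.181) or 2 (adjusted p = 0.175) of the mixture, library 1 of Tm2 (adjusted p = 0.134) or library 2 of Tm9 (adjusted p = 0.0604), and the near-identical Hsp70 copies can share reads. Against Tm9 alone Hsp68 (adjusted p = 0.251), Hsp70Bc (adjusted p = 0.0627) and Hsp70Bb (adjusted p = 0.602) were not called.

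Markers of glia gave 1 lower call in 15 and none higher by edgeR, at an unadjusted p below 0.05 or by DESeq2, with a summed level of 218.3 to 245 CPM in the mixture, 169 to 222 CPM in Tm2 and 259.7 to 319.5 CPM in Tm9. repo, the defining glial factor, stood at 3.53, 2.76 and 3.1 CPM, and the gene called lower was Gs2, at 16.4 CPM against 37.2 and 43.3 CPM, a call lost without library 2 of the mixture (adjusted p = 0.077). Markers of photoreceptors gave 1 higher and 2 lower calls in 13, with sums of 773 to 841 CPM in the mixture, 666 to 743 CPM in Tm2 and 606 to 763 CPM in Tm9, nearly all of it norpA. The rhodopsin gene ninaE stood at 0.428 CPM in the mixture, and the calls were trpl, Rh5 and ninaC, the first 2 under 7 CPM in each mean. ninaC was low in the mixture and Tm2, at 0.107 and 0.0723 CPM, and at 262, 184 and 222 CPM in Tm9. Without library 1 of the mixture the calls of ninaC (adjusted p = 0.116), trpl (adjusted p = 0.154) and Rh5 (adjusted p = 0.157) were lost. That of ninaC was also lost without library 1 of Tm2 (adjusted p = 1), and that of Rh5 without library 3 of the mixture (adjusted p = 0.106) or of Tm2 (adjusted p = 0.0505) or in the fit of 12 libraries (adjusted p = 0.103). ninaC was not called against Tm2 alone (adjusted p = 1), nor trpl (adjusted p = 0.238) and Rh5 (adjusted p = 0.172) against Tm9 alone, and Mi1 had 0.458 CPM of trpl against 0.233 CPM in the mixture.

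Of 8 blood cell and fat body markers, 1 was called higher, which was Pxn, a peroxidase of the extracellular matrix. It stood at 820.3, 387 and 358 CPM in the mixture, 319.6, 211 and 299 CPM in Tm2 and 48.4, 49.7 and 61.6 CPM in Tm9, and at 644 ± 42.9 CPM in Mi1, with a change of 0.92 (adjusted p = 0.00585, SE 0.24) from Tm2, short of the fold threshold, while the defining markers Hml and srp were at 0.113 and 0 CPM in the mixture. The sum of these markers was 361 to 823.5 CPM in the mixture, 216 to 326 CPM in Tm2 and 49.6 to 63 CPM in Tm9. Of 8 muscle and trachea markers, Act57B was called higher at 0.462 CPM with no read in Tm2 or Tm9 and no adjusted p from DESeq2, and the sum was 1.92 to 6.3 CPM in the mixture, 1.74 to 4.51 CPM in Tm2 and 21.6 to 44.1 CPM in Tm9.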

How the data were processed

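The authors deposited raw counts of reads in each of 17558 FlyBase genes, without normalization. The submitters' processing notes name Trimmomatic 0.32, STAR 2.5.2, HTSeq 0.6.1 and build BDGP6. Which strand setting was used in counting is not given in the sources used here. Per the labels' protocols, RNA of sorted cells was amplified with SMART-Seq v4 and made into libraries with Nextera XT, which do not mark strand. The table also has 5 summary lines that name no gene, with 56.38 to 64.51% of the reads of the libraries used here, and these stayed out of library sizes and tests. The 3 numbered libraries of each GEO sample were used as units. Counts of each pair of libraries of the mixture, Tm2 and Tm9 differed beyond sampling noise, with chi-square values of 26.03 to 292.19 for each degree of freedom.

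The count tests used edgeR 4.0.16 under R 4.3.3. After filterByExpr, which left 12569 genes, and TMM scaling, robust quasi-likelihood fits had 1 coefficient for each group and took in all 57 libraries, so that all groups share an estimate of the spread. p-values were adjusted by Benjamini-Hochberg over the 12569 genes. Alternatives were DESeq2 1.42.0, its size factors, no filter, a fit of 12 libraries, a block for the library number, other thresholds and each library left out; their effect stands in the closing section. The script was tested on simulated data.

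Symbols were matched for 17251 identifiers, and coordinates and exon overlaps came from Ensembl release 115 annotation of BDGP6. The 307 identifiers without a symbol stayed in the counts, the filter and the tests. Members of the gene lists that matched no identifier were not analysed here. Values were summarised in Python 3.11.15 (numpy 2.4.6; pandas 2.3.3) with scipy 1.17.1 for intervals, and plotted using matplotlib 3.10.9.

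The genes compared and the gene lists were chosen with earlier results of these data known. By rule, the text names the 4 given markers, T1 genes, transmitter genes, the 14 and 8 genes of largest change called higher and lower (at least 20 CPM, no overlap), up to 4 called members per list, and 3 genes on each side of the threshold on T1. bsh, hth, brp, Ugt36E1 and further list members were chosen after their values were seen.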

Additional observations from a re-analysis of the deposited data

How the results depend on the processing

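Counts of kept genes called higher and lower against the mean, Tm2 and Tm9 were 648, 149, 609, 217, 496 and 296. Under DESeq2, its size factors, no filter on low counts and setting genes aside without TMM, all 6 stayed within 1.5 times these values. In the fit of 12 libraries only the lower count against Tm9 moved further, to 183, and with single libraries left out it ranged from 190 to 268. A log2 threshold of 2 gave lower counts of 74 against the mean, 105 against Tm2 and 172 against Tm9. With no genes set aside the lower counts were 237, 361 and 465, and setting aside genes with a T1 mean above 0.5 of the mixture mean gave 140 lower against Tm2. Of the alternatives added after seeing the data, setting genes aside where the T1 mean times the median T1 ratio exceeded 0.5 of the mixture mean gave 335 lower against Tm2. Also setting aside genes with a Mi1 mean above the mixture mean gave 69 lower against the mean, 89 against Tm2, 150 against Tm9 and 325 higher against Tm9. The cause of these moves other than fewer or more genes and libraries entering was not tested.

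The labels give no replicate numbers, and whether the column numbers pair the libraries is not known. Deviations of same-numbered libraries of the mixture, Tm2 and Tm9 correlated at -0.314 to 0.549. Differently numbered libraries were not compared in this way, so these values cannot settle whether libraries are paired. With a replicate block by column number the counts were 617, 144, 591, 213, 476 and 292. Of the 100 genes named in the text that were called and refitted, 84 kept the call under every alternative fit that gave an adjusted p. The call was lost by 11 without library 1 of the mixture, the deepest, by 5 without library 2, by 3 without library 3, by 3 under DESeq2, which gave no adjusted p for CCHa2 and Act57B, and by 1, CCHa2, under the block. No refitted gene reversed. The mixture has 1 library of 6147470 reads, and low levels in it are less precise than in the other 2.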
